A study of Rattus norvegicus with 12 samples.

Results

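The genes described here are 10 that mark choroid plexus or meninges: Ttr, Enpp2, Igf2, Igfbp2, Prlr, Folr1, Kl, Ace, Dcn and Ptgds. They were selected on signals measured in these same 12 arrays, led by the spread of Ttr between arrays, as a gauge of neighbouring tissue carried over in hippocampal dissection. Every probe set that the array annotation gives to 1 of these genes alone was taken, which gave 16 probe sets for 10 of the 10411 genes named on the array. Because the measured values chose the genes, their levels, differences and correlations are descriptions. Counts of members past a threshold are set beside the same count over all probe sets, and Ttr and the leptomeningeal members served as covariates for other genes.

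RNA came from rat hippocampus, each sample a pool of 3 to 4 animals hybridised to 1 array, and the study asked how housing alters the response to seizures. Rats received KA on postnatal day 20, read here as kainic acid, which induces seizures through glutamate receptors, or PBS as vehicle. The isolated rats were kept singly for 10 days, and the enriched rats lived in large cages with 8 animals each. There were 4 groups of 3 pools: PBS_isolated, KA_isolated, PBS_enriched and KA_enriched. The labels used here give no strain, sex, cage or litter. Only those of PBS_isolated say that the 10 days came before sacrifice, and no other group has a stated time to sacrifice. No group had ordinary housing, so an effect of enrichment and an effect of isolation cannot be told apart. The spread given is between pools, and P-values measure that spread alone.

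The choroid plexus is the tuft of epithelium and stroma in each ventricle that secretes cerebrospinal fluid, and 1 tuft lies along the hippocampal fimbria. Its epithelium is the main site of transthyretin (Ttr) synthesis in brain, a carrier of thyroxine and of retinol-binding protein. The leptomeninges cover the hippocampal surface and line its fissure. Their fibroblasts make collagens, decorin (Dcn), insulin-like growth factor 2 (Igf2), its binding protein Igfbp2 and prostaglandin D synthase (Ptgds). Several of these genes have other sources as well: oligodendrocytes make Enpp2 and Ptgds, and choroid plexus itself makes Igf2 and Igfbp2.

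The arrays were alike in scale, with median signals from 70.1 to 74.1 and pairwise correlations of log2 values from 0.981 to 0.991. Hippocampal neuron markers were present throughout: the summed signal of the 14 on the array ran from 6914 to 7891 over the pools. The glutamate transporter Slc17a7 alone read 2084 to 2550. The summed signal of 16 microglial markers ran from 1995 to 2132 in PBS_isolated and from 2741 to 3215 in KA_isolated. The enriched groups each spanned both levels, 2024 to 2954 in PBS_enriched and 1864 to 2936 in KA_enriched. The high pools were PBS_enriched replicate 2 and KA_enriched replicate 3, so 1 PBS pool resembled KA_isolated and 2 KA pools resembled PBS_isolated in these genes. Whether a label is wrong was not tested. The comparisons below were repeated without each pool in turn. Leaving out 1 pool keeps the others of these in place, so those runs cannot settle the question of labels.

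Ttr was the most variable of the 9520 probe sets tested, which were the 60% with the highest mean. Its signal, an array intensity on a linear scale, was 2719, 254.5 and 87.2 in PBS_isolated replicates 1, 2 and 3, and 104, 377 and 151 in those of KA_isolated. It was 110.1, 142 and 97.7 in PBS_enriched and 130.5, 683 and 125 in KA_enriched. PBS_isolated replicate 1 stood far above every other pool and KA_enriched replicate 2 came next, while each of the 4 groups also held a pool under 131. The highest pool was 31.2-fold above the lowest, and the median pool lay at 136. After adding 17.1, the 20th percentile of all signals, and taking log2, the SD of Ttr over the 12 pools was 1.39. Whether dissection set this spread was not tested. In bulk tissue, fewer cells of a type and less RNA per cell cannot be told apart.

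Enpp2 encodes autotaxin, the secreted enzyme that makes lysophosphatidic acid. Its signal was 577, 386 and 379.6 in PBS_isolated and 385, 415 and 404 in KA_isolated. It was 441, 410.5 and 439 in PBS_enriched and 425.5, 484 and 415.5 in KA_enriched. The pools highest and second in Ttr were also highest and second in Enpp2. The remaining 10 pools lay between 379.6 and 441, and their order did not follow Ttr.

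Folr1, the folate receptor that carries folate across the choroid epithelium, read 91.4, 67.1 and 69.97 in PBS_isolated and 63.6, 81.8 and 85.8 in KA_isolated. It read 71.4, 63.5 and 52.9 in PBS_enriched and 64.5, 85.3 and 81.6 in KA_enriched. PBS_isolated replicate 1 was again the highest, but its lead over the next pools was small and the groups overlapped.

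**Figure D1:**
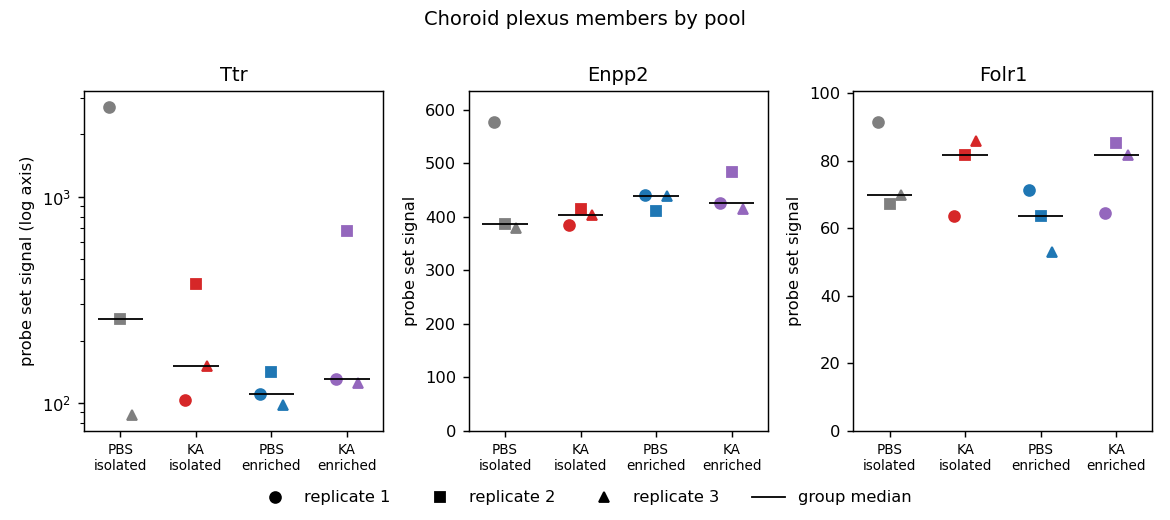
Probe set signal of Ttr (log axis), Enpp2 and Folr1 (linear axes from 0) in each pool of the 4 groups; symbols mark the replicate number and bars the group median. PBS_isolated replicate 1 is the highest pool in all 3 genes, with Ttr at 2719, and KA_enriched replicate 2 is second in Ttr, at 683, and in Enpp2, at 484.

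The remaining choroid plexus members were dim and below the filter in every probe set. Kl, the membrane protein klotho and co-receptor for FGF23, read 1.32 to 9.26. Ace, angiotensin-converting enzyme of the choroid brush border and of vessels, read 17.3 to 28.55 and 2.73 to 24.8 in its 2 probe sets. Prlr, the prolactin receptor, read 28.57 to 48.1, 15.2 to 37.7 and 5.02 to 28.5 in its 3 probe sets. The dimmest Prlr probe set had an r of 0.732 with Ttr and the dimmer Ace probe set 0.539, and the rest had 0.0502 to 0.296. No test was made on these 3 genes.

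Leptomeningeal members formed a second pattern. Promoters of 7 of the 10 genes were found in a RefSeq table of build GRCr8, and those of the leptomeningeal members are shown because these genes moved together. For Dcn, also a leptomeningeal member, 0 promoters were found, as for Enpp2 and Folr1. Each sequence is the 250 bases before a gene start, 5′ to 3′ on the gene's strand, with capitals marking the GC box letters GGGCGG on either strand:
Igf2 upstream promoter, chr1:207253981-207254230, minus strand: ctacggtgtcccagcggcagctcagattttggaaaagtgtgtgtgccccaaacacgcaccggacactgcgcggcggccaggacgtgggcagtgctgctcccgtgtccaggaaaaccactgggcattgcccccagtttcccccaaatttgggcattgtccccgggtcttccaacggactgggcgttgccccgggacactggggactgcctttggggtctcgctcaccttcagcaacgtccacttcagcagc
Igf2 downstream promoter, chr1:207250476-207250725, minus strand: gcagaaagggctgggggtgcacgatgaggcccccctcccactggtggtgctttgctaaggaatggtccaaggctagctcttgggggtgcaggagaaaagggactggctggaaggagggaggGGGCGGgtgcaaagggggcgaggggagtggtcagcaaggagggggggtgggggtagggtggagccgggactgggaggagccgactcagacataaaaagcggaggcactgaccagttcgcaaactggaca
Igfbp2, chr9:81864561-81864810, plus strand: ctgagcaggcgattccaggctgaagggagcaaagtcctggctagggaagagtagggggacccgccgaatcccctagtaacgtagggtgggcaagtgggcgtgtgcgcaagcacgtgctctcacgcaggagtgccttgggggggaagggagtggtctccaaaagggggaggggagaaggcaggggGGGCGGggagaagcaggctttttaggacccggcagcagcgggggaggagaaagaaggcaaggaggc
Ptgds, chr3:28682979-28683228, minus strand: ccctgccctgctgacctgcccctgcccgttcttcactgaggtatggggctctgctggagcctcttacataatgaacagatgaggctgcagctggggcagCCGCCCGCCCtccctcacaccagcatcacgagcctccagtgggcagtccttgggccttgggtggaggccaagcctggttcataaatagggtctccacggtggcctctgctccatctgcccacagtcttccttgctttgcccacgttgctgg
The share of G and C was 62.4% and 63.6% in both Igf2 promoters, 64.0% in Igfbp2 and 62.0% in Ptgds, against a median of 51.2% over all 33469 promoters of the table. GGGCGG occurred 1 time in the downstream Igf2 promoter and in Igfbp2, 2 times (overlapping) in Ptgds and 0 times in the upstream Igf2 promoter. It occurs in 30.5% of all promoters of this length. The TATA letters TATAAA, the OTX core TAATCC and the forkhead core TGTTTAC, searched on both strands, were in 0 of these 4 sequences, and in 12.9%, 6.34% and 3.21% of all promoters. Of the other members' windows, Ttr held 0 of these 4 motifs, both Prlr windows 0, Kl 3 copies of GGGCGG, and Ace 4 copies of it with 1 of TATAAA and 1 of TAATCC. These matches describe letters alone.

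Igf2, the fetal growth factor that persists in adult brain coverings, had a signal of 397, 324 and 354.5 in PBS_isolated and 301, 269 and 387 in KA_isolated. It had 197, 289.9 and 375 in PBS_enriched and 348, 284 and 354 in KA_enriched. PBS_enriched replicate 1 was the lowest pool and PBS_isolated replicate 1 the highest. The other 3 Igf2 probe sets were at 15.04 or below in every pool.

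Igfbp2, which binds insulin-like growth factors in cerebrospinal fluid, had 402, 202 and 256.5 in PBS_isolated and 193, 196 and 317 in KA_isolated. It had 228, 231 and 355 in PBS_enriched and 256, 160.5 and 252 in KA_enriched. KA_enriched replicate 2, the pool second in Ttr, was the lowest of the 12.

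Dcn, a small proteoglycan that binds collagen fibrils, had 169.5, 165 and 148 in PBS_isolated and 137, 142 and 191 in KA_isolated. It had 93.7, 154 and 159.5 in PBS_enriched and 112, 88.8 and 146 in KA_enriched. The lowest 2 pools were KA_enriched replicate 2 and PBS_enriched replicate 1.

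Ptgds, which makes prostaglandin D2 and also carries lipids, had 1720.0, 1043 and 1275 in PBS_isolated and 1380.0, 1576 and 1581 in KA_isolated. It had 715, 1122 and 1557 in PBS_enriched and 1511, 841 and 1581 in KA_enriched. The same 2 pools were again the lowest. By SD over the 12 pools Ptgds ranked 45, Igfbp2 76, Dcn 176 and Igf2 308 of 9520, while Folr1 ranked 1478 and Enpp2 2481.

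**Figure D2:**
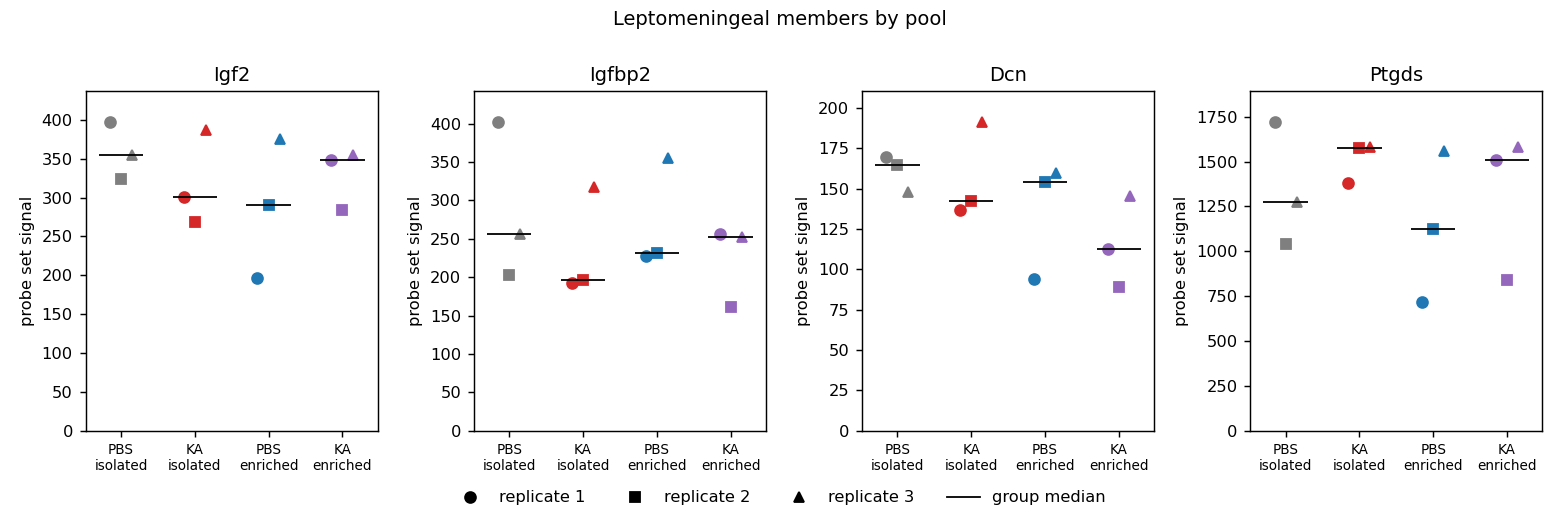
Probe set signal of Igf2, Igfbp2, Dcn and Ptgds in each pool (linear axes from 0); symbols mark the replicate number and bars the group median. PBS_enriched replicate 1 and KA_enriched replicate 2 sit low in Igf2, Dcn and Ptgds, and KA_enriched replicate 2, second highest in Ttr, is the lowest in Igfbp2, at 160.5.

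The 7 members above the filter thus did not vary as 1 group. Correlations are given across the 12 pools as descriptions; the points share arrays and scaling. With Ttr, r was 0.828 for Enpp2 and 0.664 for Folr1, but 0.159 for Igf2, 0.153 for Igfbp2, 0.0294 for Dcn and 0.105 for Ptgds. Spearman's rho with Ttr was 0.42 for Enpp2 and 0.65 for Folr1. Without the 2 pools farthest from the Ttr median, PBS_isolated replicate 1 and KA_enriched replicate 2, r became -0.0739 for Enpp2 and 0.423 for Folr1, so the relation of Enpp2 to Ttr rested on those pools. For Igfbp2 it became -0.474.

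Among Igf2, Igfbp2, Dcn and Ptgds, all 6 pairs had r between 0.587 and 0.776, and between 0.632 and 0.856 once group means were removed. Without the same 2 pools the range was 0.334 to 0.769. The 12 pairs that joined a leptomeningeal member to Ttr, Enpp2 or Folr1 had r between -0.163 and 0.405.

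**Figure D3:**
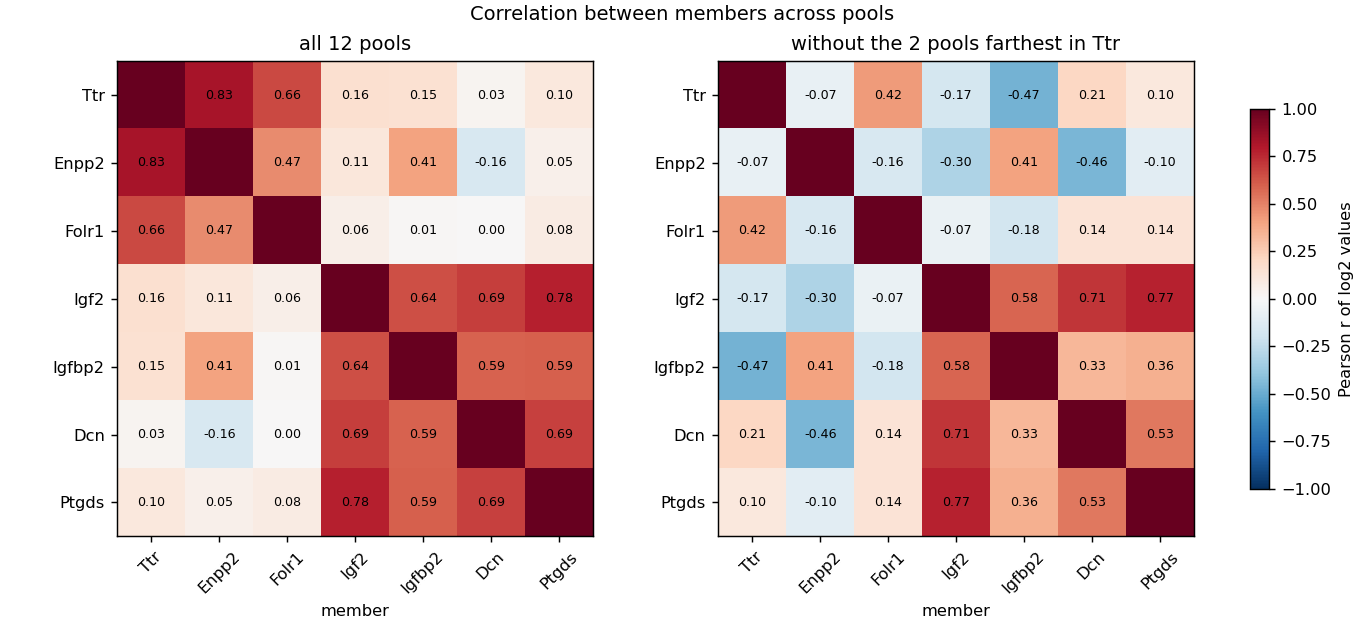
Pearson r of log2 values for every pair of the 7 members above the filter, over all 12 pools (left) and without the 2 pools farthest from the Ttr median (right). Igf2, Igfbp2, Dcn and Ptgds form a block with r of at least 0.587 on the left, while r of Enpp2 with Ttr goes from 0.828 to -0.0739.

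None of the 7 members differed between groups past an adjusted p of 0.05 in any of 5 comparisons (limma), and 0 of 7 had an unadjusted p under 0.05. Over all 9520 probe sets, 1 was called for the KA effect under isolation (0.0105%), 0 for that under enrichment (0%), 1 for enriched against isolated housing after PBS (0.0105%), 0 after KA (0%) and 0 for the interaction (0%). At an unadjusted p under 0.05 there were 410, 474, 401, 668 and 473 in the same order. The gene called in both comparisons was Anp32a, which was lower. A count of 0 among 7 members is therefore near the background.

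Ttr had the widest differences and the widest errors of the members. Its log2 difference for KA against PBS was -1.09 in isolated rats and 0.89 in enriched rats (SE 0.929 each). Enriched against isolated housing gave -1.69 after PBS and 0.29 after KA, and the interaction was 1.98 (SE 1.31). Without PBS_isolated replicate 1 the isolated KA difference was 0.25 and the housing difference after PBS was -0.35, so that 1 pool set the sign of the first and most of the size of the second.

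Of the other members Dcn had a log2 of -0.40 for enriched against isolated housing after KA (SE 0.186). In the housing comparison after PBS all 7 members were lower in enriched pools, by a median log2 of -0.25 against 0.00265 for all probe sets. The 7 members share all 3 control pools, and PBS_isolated replicate 1 was the highest of the 12 in 6 of them. Without that pool Enpp2 became 0.16 and Igfbp2 0.21. Without PBS_enriched replicate 1 Igfbp2 became 0.05 and Ptgds 0.0039, and without PBS_enriched replicate 2 Igfbp2 became 0.04 and Enpp2 0.0024. A lower level in all 7 members at once thus rested on single pools. Ttr, Igf2, Folr1 and Dcn stayed lower with each pool left out, with the smallest differences at -0.35, -0.11, -0.11 and -0.03. The median over the members was -0.13 for KA in isolated rats, 0.22 for KA in enriched rats and 0.00145 for housing after KA. In the housing comparison after KA 1 of 7 members, Enpp2, had groups that did not overlap, at 415.5 or above in KA_enriched and 415 or below in KA_isolated, with a log2 of 0.13 (SE 0.129). Of all probe sets 10.8% had groups that did not overlap there, so 1 of 7 is near the background. The SE of Enpp2 pools all 4 groups. Its log2 SD was 0.0532 in KA_isolated, 0.115 in KA_enriched, 0.0558 in PBS_enriched and 0.33 in PBS_isolated. In the other comparisons 0 of 7 members had such groups, against 10.8% of all probe sets for KA in isolated rats, 9.62% for KA in enriched rats and 11.6% for housing after PBS.

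To see what varied with Ttr among pools of the same group, its log2 value was entered as a covariate beside the 4 group means. Of 9519 other probe sets 1 was called (0.0105%), and 543 had an unadjusted p under 0.05. It was a probe set of Gabbr1, a subunit of the metabotropic GABA receptor, with a slope of 0.25 log2 per log2 of Ttr (SE 0.0246, adjusted p = 0.00218). Its signal in replicates 1, 2 and 3 was 436, 211 and 177 for PBS_isolated and 212, 268.5 and 229 for KA_isolated. For PBS_enriched it was 322, 346 and 271 and for KA_enriched 213.5, 324 and 225. The other tested Gabbr1 probe sets had slopes of 0.09, -0.04 and -0.01, and without PBS_isolated replicate 1 the slope of the first was 0.22 with an adjusted p of 0.27.

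Choroid plexus epithelium was read through a list of 42 gene symbols besides the members, of which 31 were on the array and 13 above the filter. Of these 13, 10 had a positive slope on Ttr and 0 were called, with a median slope of 0.02 against -0.00121 for all probe sets. The 3 of smallest p were Msx1, a homeobox factor of the roof plate (slope 0.17, SE 0.0388, adjusted p = 0.709), the cotransporter Slc12a2 (0.04) and the copper transporter Slc31a1 (0.03). The list's summed signal was 2343 to 2745 in PBS_isolated, 2289 to 2492 in KA_isolated, 2337 to 2433 in PBS_enriched and 2347 to 2492 in KA_enriched. PBS_isolated replicate 1 was the highest pool for 4 of the 13 and for 8 of the 18 dim genes. The same pool was highest for 2 of 18 meningeal fibroblast genes above the filter and for 3 of 15 dim ones. For endothelial and mural genes it was 1 of 14 and 0 of 10, and for microglial genes 0 of 13 and 0 of 3. In each remaining list it was highest for at most 1 gene above the filter and at most 4 dim genes. The share over all probe sets was not counted.

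Of the dim choroid genes, 3 were singled out after their values were seen, and 1 of them followed the high Ttr pools. Sostdc1, a secreted BMP and Wnt antagonist, had 77.2 in PBS_isolated replicate 1, 47.9 in KA_enriched replicate 2, 43.4 in KA_isolated replicate 2 and 43.4 in PBS_isolated replicate 2, against 17.4 to 33.8 in the others. These are the 4 pools highest in Ttr, in the same order. Cldn2, the claudin of the leaky choroid tight junction, had 30.1 in PBS_isolated replicate 1 and 26.3 in KA_enriched replicate 2, but 23.8 in KA_enriched replicate 3 and 10.7 in PBS_isolated replicate 2, with 2.84 as the lowest pool. F5, coagulation factor V, was high in PBS_isolated replicate 1 alone, at 59.5 against 14.6 to 28.02 elsewhere.

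Other choroid markers were mixed. Mfrp and Tmem72 had their highest signals in PBS_isolated replicate 1, within ranges of 23.9 to 55.3 and 1.11 to 9.44. Otx2, the homeobox factor of the choroid epithelium, had 8.18 in PBS_isolated replicate 1 within a range of 7.12 to 39.4, and the potassium channel Kcnj13 had its lowest signal there, 9.81. With no filter on dim probe sets, 20 of the 31 list genes (64.5%) had a positive slope on Ttr, against 47.7% of all 15865 probe sets, and 0 were called, against 1 of all probe sets (0.0063%). Those with an unadjusted p under 0.05 were 6 positive and 1 negative, 22.6% of the list against 5.75% of all probe sets, and Sostdc1 had the smallest p (slope 0.28, SE 0.0423, adjusted p = 0.422). Spearman's rho with Ttr was 0.804 for Sostdc1, 0.58 for Msx1 and 0.573 for Cldn2. It was 0.224 for Mfrp, 0.182 for F5, 0.154 for Tmem72 and -0.0979 for the negative Kcnj13. All 6 positive genes had their highest signal in PBS_isolated replicate 1, and Kcnj13 had its lowest there. How far the 22.6% rested on that pool was not tested.

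The remaining lists had 0 genes called for the slope on Ttr. Of 18 meningeal fibroblast genes 8 were positive, and the 3 of smallest p were Islr (-0.09), Bmp7 (-0.03) and Cyp1b1 (-0.05). Of 14 endothelial and mural genes 9 were positive, led by Slco1c1 (0.08), Abcc9 (0.04) and Cldn5 (0.02). Blood gave 1 positive of 4, with Alas2 at -0.11, Hbb at -0.06 and Slc4a1 at 0.06.

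For tissue next to the hippocampus, 2 of 5 thalamic, striatal and habenular genes were positive, with Rgs9 at -0.04, Prkcd at -0.03 and Tcf7l2 at -0.01. Hippocampal neurons gave 7 positive of 12, with Wfs1 at -0.06, Neurod2 at 0.10 and Fibcd1 at -0.05. Microglia gave 2 of 13, with Tyrobp at -0.04, C1qc at -0.06 and Cd74 at -0.105. The 1 ependymal gene above the filter, Tppp3, had -0.04.

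Receptors, carriers and enzymes that act with the members made a further list, with 39 genes on the array and 18 above the filter. On Ttr, 9 were positive, 9 negative and 0 called. The 3 of smallest p were Igf1, the growth factor bound by Igfbp2 (slope 0.11, adjusted p = 0.798), and the thyroid hormone receptors Thra (-0.08) and Thrb (0.07). Rbp4, the retinol-binding protein that Ttr carries, had a slope of -0.07 and a signal of 42.7 to 96.6.

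Over all 12 pools the genes with patterns most like Ttr, out of 6922 ranked by Pearson r, were Cops4 (0.865), Enpp2 (0.828), Kiaa1191, Mbnl2, Tent4a, Tsg101, Hgsnat, Ogdh, Selenop and Tlcd1 (0.762). The least like were Notch1 (-0.904), Rnf25, Ctdspl, Rangap1 and Gstm7 (-0.824). Enpp2 was thus second of 6922 and Folr1 ranked 71, while Igf2 ranked 2049, Igfbp2 2093, Ptgds 2483 and Dcn 3077. For several of the named genes r rested on both pools farthest from the Ttr median. Without those pools r was -0.0106 for Ogdh, -0.0739 for Enpp2, 0.249 for Tent4a and 0.4 for Cops4. The remaining genes most like Ttr kept r between 0.482 (Mbnl2) and 0.824 (Selenop). Of the least like, Notch1 (-0.773) and Rangap1 (-0.767) held, while Ctdspl went to -0.356, Rnf25 to -0.187 and Gstm7 to 0.0943.

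The same question was then put to the leptomeningeal members, a choice made after seeing the data. Their index is the mean of the centred log2 values of Igf2, Igfbp2, Dcn and Ptgds. Isolated pools had 0.41, -0.08 and 0.07 after PBS and -0.08, -0.05 and 0.33 after KA. Enriched pools had -0.52, -0.07 and 0.29 after PBS and 0.03, -0.47 and 0.13 after KA. Every group but KA_enriched had a pool at 0.29 or above, and the 2 lowest pools were enriched.

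Within groups, 2 of 9513 probe sets were called on this index (0.021%), and 418 had an unadjusted p under 0.05. Both were chains of type I collagen, the main fibril of connective tissue. Col1a1 had a slope of 1.09 log2 per log2 of the index (SE 0.132, adjusted p = 0.0116) and Col1a2 one of 1.33 (SE 0.161, adjusted p = 0.0116). The genes of the index were grouped after these data were seen, and the adjusted p takes no account of that choice. In isolated pools Col1a1 read 123, 96.04 and 113 after PBS and 103, 95.45 and 146 after KA, and in enriched pools 69.3, 96.1 and 162 after PBS and 127, 78.6 and 128 after KA. Col1a2 read 106, 73.15 and 96.7, then 84.98, 81.6 and 135, then 45.1, 67.5 and 140.1, and last 96.6, 64.3 and 115 in that order of groups. A second probe set of each gene was tested and was not called, with a slope of 0.62 for Col1a1 (SE 0.181, adjusted p = 0.967) and 0.79 for Col1a2 (SE 0.202, adjusted p = 0.824).

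The lowest 2 pools of both collagens were the lowest 2 of the index, PBS_enriched replicate 1 and KA_enriched replicate 2. Both calls were lost without KA_isolated replicate 3 (adjusted p = 0.0723), PBS_enriched replicate 1 (0.178), PBS_enriched replicate 3 (0.16 and 0.152) or KA_enriched replicate 2 (0.12 and 0.103), with slopes between 0.94 and 1.42. They were also lost with the replicate number as a block (adjusted p = 0.382), with slopes of 0.94 for Col1a1 and 1.075 for Col1a2. The index was below 0 in all 4 pools numbered 2 and above 0 in all 4 numbered 3, and both collagens were higher in replicate 3 than in replicate 2 in all 4 groups. The part of the replicate number in the result was not tested.

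**Figure D4:**
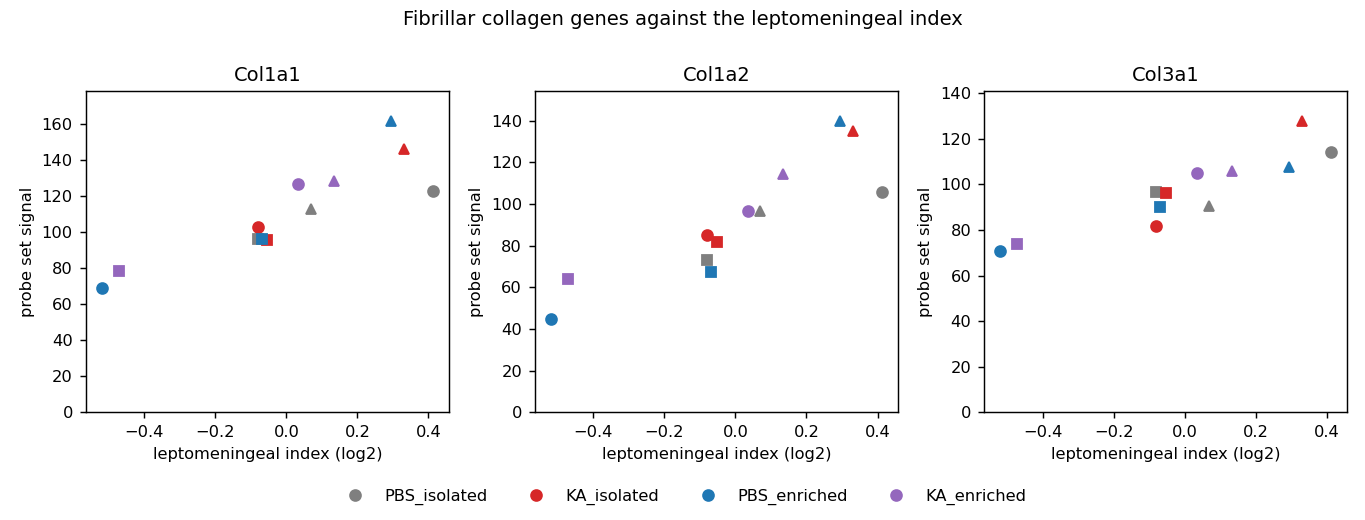
Signal of Col1a1, Col1a2 and Col3a1 (linear axes from 0) against the leptomeningeal index, the mean centred log2 value of Igf2, Igfbp2, Dcn and Ptgds, in each pool; colours mark groups and symbols the replicate number (circle 1, square 2, triangle 3). The pools at -0.52 and -0.47 are the lowest 2 for all 3 genes, with Col1a1 at 69.3 and 78.6.

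The meningeal fibroblast list held both collagens. Of its 18 genes above the filter, 15 had a positive slope on the index, 2 were called and 10 were positive at an unadjusted p under 0.05, with a median slope of 0.46 against -0.00368 for all probe sets. Col3a1, type III collagen, had 0.71 (SE 0.118, adjusted p = 0.134). Slc6a20a, a proline transporter, had 0.93 (adjusted p = 0.337) and Ogn, the proteoglycan osteoglycin, 1.14 (adjusted p = 0.531). The sulfate transporter Slc13a4, which stood in the choroid list and is also made by leptomeninges, had 0.81 (adjusted p = 0.0799), next after both collagens.

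Other lists had 0 genes called on the index. In blood, 3 of 4 genes were positive at an unadjusted p under 0.05, among them Hba-a3 (0.82), and their part in the result was not tested. Of 13 microglial genes 12 were positive, with a median slope of 0.22 and 1 at an unadjusted p under 0.05, Laptm5 (0.31). Of 13 choroid genes 11 were positive, with a median of 0.13 and 2 at an unadjusted p under 0.05. Of 14 endothelial and mural genes 7 were positive, and 5 were at an unadjusted p under 0.05: Acta2 (0.41), Mcam (0.33), Notch3 (0.21) and Eng (0.44) were positive and Flt1 (-0.39) negative. The part of these cell types in the result was not tested. Of 12 hippocampal neuron genes 0 were at an unadjusted p under 0.05. Ttr itself had a slope of 0.06 on the index (SE 1.34), Enpp2 one of 0.11 (SE 0.184) and Folr1 one of -0.05 (SE 0.19).

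**Figure D5:**
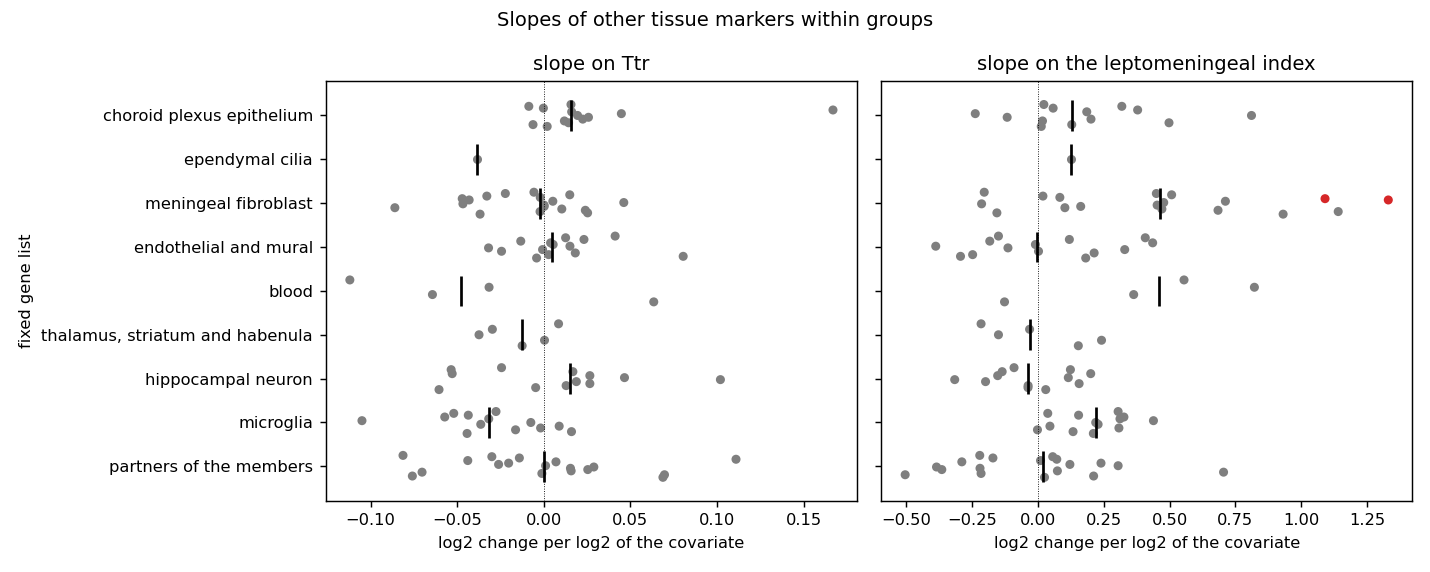
Slopes of list genes within groups on Ttr (left) and on the leptomeningeal index (right), in log2 per log2 of the covariate; points are genes above the filter, bars list medians and red points those with an adjusted p under 0.05. On the right the meningeal fibroblast list lies to the right with a median of 0.46 and holds both red points, Col1a1 and Col1a2; on the left no point is red.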

How the data were processed

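Each sample was 1 single-colour array of 15923 probe sets. The authors deposited array intensity as probe set signals on a linear scale; the summary method and build are not given in the sources used here. By the values, the mean of each array without the lowest and highest 2% was 150.03, so no further scaling was done. The number of arrays limits the precision.

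Without the 57 controls, tests used log2(signal + 17.1), which understates changes of dim genes, and the 60% of the rest with the highest mean were tested (9520). The annotation gave 1 symbol to 12783 probe sets, several to 312 and none to 2771; 1 probe set shared by Ttr and metallothionein genes was not used. Of 16 member probe sets 7 were tested and 9 were not. Groups, from the labels' treatment text, and slopes were fitted with limma 3.58.1 in R 4.3.3 (lmFit, eBayes), 2-sided, with Benjamini-Hochberg adjustment over all tested probe sets. Steps were tested on simulated data. Promoters were read with Python 3.11.15.

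Named were all members, passing genes of the 9 lists (otherwise the 3 of smallest p), the 10 genes most and 5 least like Ttr, and called probe sets; genes named on the leptomeningeal index or as dim choroid genes were chosen after their values were seen. Members and lists were chosen with earlier results of these data known. Alternatives were other pseudocounts (1, 50), scalings, no filter, the replicate number as a block, fits without group terms or with the compared groups alone, another covariate and each pool left out.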

Additional observations from a re-analysis of the deposited data

How the results depend on the processing

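In all 5 group comparisons 0 members were called under every alternative run. The Ttr differences ranged, with each pool left out, from -2.11 to 0.25 (KA, isolated), 0.13 to 1.28 (KA, enriched), -2.70 to -0.35 (housing, PBS), -0.47 to 0.78 (housing, KA) and 0.64 to 2.99 (interaction). The count associated with Ttr was 0 with the replicate block, without group terms or with the mean of Folr1, Prlr, Kl and Enpp2 as covariate, and 0 to 1 with each pool left out, 0 without PBS_isolated replicate 1. The count on the leptomeningeal index was 4 without group terms, 0 with no filter, with the block, with Igfbp2, Dcn or Ptgds alone, or without both lowest pools, and 0 to 4 with each pool left out (4 without PBS_isolated replicate 1). The meningeal list count was 0 under those same settings that gave 0 and 0 to 2 with each pool left out. With no filter Col1a1 and Col1a2 had an adjusted p of 0.0919. Why the calls were lost under any of these settings was not tested. With Igf2 alone in place of the index, Col1a1 and Col1a2 stayed called, with slopes of 1.23 and 1.51 (adjusted p = 0.00864 each). Index settings with single genes or without both lowest pools were chosen after seeing the data.

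By the correlation of deviations the replicate numbers were not taken as pairing the pools: same-numbered pools had a mean r of 0.05 (-0.0721 to 0.199 over 18 pairs), differently numbered pools -0.025, and 5 of 12 pools were nearest to one of their own number. The leptomeningeal index did differ by number, at -0.47 to -0.05 in replicate 2 and 0.07 to 0.33 in replicate 3. With the block the collagens had an adjusted p of 0.382 and Gabbr1 had an adjusted p of 0.0645. Where Ttr was added as a covariate of the group comparisons, after seeing the data, 1, 0, 2, 2 and 0 probe sets were called. Only 3 arrays per group and signals of dim genes near the floor of the table limit all these values.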
